A study of Homo sapiens with 16 samples.

Results

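The genes described here build and run the transport system of the primary cilium. They were the protein-coding genes named IFT, BBS, BBIP1, DYNC2, NPHP, TCTN, B9D, MKS1, CC2D2A or RPGRIP1L that stood in all 4 of the authors' tables, which gave 36 genes of the 19344 shared by those tables (13800 of them protein-coding). Beyond the names, the choice used only presence in all 4 tables, which depends on measured expression. The gene group was picked with earlier results of these data known. The samples were 16 poly(A) RNA-seq libraries of U2OS, a human osteosarcoma cell line, in 4 groups of 4 libraries. Cells were given siRNA against the transcription factor RFX7 (siRFX7) or a control (siControl), and then 10 µM Nutlin-3a or its solvent DMSO for 24 h. Nutlin-3a keeps MDM2 from binding p53 and so raises p53. All 4 groups are therefore transfected cells of the same line, and how many siRNA sequences each reagent held is not given in the sources used here.

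The primary cilium is a microtubule-based antenna that most cells can form when they leave the cell cycle. Intraflagellar transport (IFT) trains carry its parts: the IFT-B complex travels outward on kinesin-2, and IFT-A with the dynein-2 motor returns to the base. The BBSome, an assembly of Bardet-Biedl syndrome proteins, rides on these trains and moves membrane proteins in and out, while the transition zone, built from the NPHP and MKS protein modules, gates the base of the cilium. Several RFX transcription factors other than RFX7 are known regulators of cilia genes and bind the X-box, a paired DNA element, in their promoters.

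Promoter sequence was examined first, because the X-box links this gene group to the RFX family. RefSeq windows on GRCh38.p14, from 250 bases before to 50 after a gene's start, were held for 31 of the 36 genes (37 windows). BBS9, IFT22 and TCTN2 were among those with none in that table. The half-site GTTGCC, searched without mismatch on both strands, was in a window of 16 of the 31 (51.6%), against 14.6% of the 27305 genes in the table. Per window the shares were 45.9% and 12.2%. Those 27305 genes outnumber the 23396 measured in any comparison, so they include genes not measured here. The share over measured protein-coding genes alone is not given. The longer X-box part GTTNCCATG, which can overlap the half-site, was found in 1 of the 31 (3.23%) against 2.05% of all genes. Of 20 half-site matches in these windows, 14 started within 50 bases of the gene start, in 13 genes. A match is a description of the letters, not a bound site.

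The lines below show the match of DYNC2LI1, the only gene with the longer motif, then the half-site in the first 7 other genes by symbol. IFT74 and TCTN3 were added after their values were seen, because both changed with siRFX7 under both treatments. Capitals mark the motif or its reverse complement, each line runs 5′ to 3′ on the gene's own strand, and positions count from the start base as 0.
DYNC2LI1, chr2:43774018-43774046, plus strand, position -11: acgtcgctccCATGGCAACccagaaggcc
B9D2, chr19:41364142-41364167, minus strand, position -8: ggagcctgctGTTGCCccagcaacaa
BBIP1, chr10:110919140-110919165, minus strand, position 25: cgttacccggGGCAACagctgagccg
BBS1, chr11:66510626-66510651, plus strand, position 1: ggcggggccgGTTGCCaggacgacgc
BBS10, chr12:76348621-76348646, minus strand, position -221: ggggcttaggGTTGCCgctccaggca
BBS5, chr2:169479470-169479495, plus strand, position -14: gaggcggcccGTTGCCttggagccag
DYNC2H1, chr11:103109431-103109456, plus strand, position 15: gactacccctGGCAACcgcgaagctc
IFT122, chr3:129440202-129440227, plus strand, position -12: gcgcatgtacGTTGCCaggggtaacg
IFT74, chr9:26956374-26956399, plus strand, position -28: tcccgcccccGTTGCCgggatacgcc
TCTN3, chr10:95694120-95694145, minus strand, position -208: acggttgccaGGCAACggaggcacgg
In TCTN3 the half-site occurred on both strands side by side, at positions -215 and -208, and both copies can be read in the line above.

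The files hold no value of a single library, so levels below are group means and errors are the authors' standard errors (SE). A table's base mean is its mean normalised count over the 8 libraries it compared, and base means summed to between 27946376 and 35311111 per table. Because the labels do not say whether the 4 libraries of a group came from separate cultures, p-values measure the spread between these libraries only. RFX7 itself was lower with its siRNA per the authors' deposited tables, at 18.6% of the control level under DMSO and 19.4% under Nutlin-3a. All 6 p53 targets listed as a check of Nutlin-3a rose in both siRNA groups, with a median log2 fold change of 2.49 in siControl per the authors' deposited table. As for the cell type, the authors' deposited tables held the osteoblast genes RUNX2, ALPL, COL1A1 and SPARC, but not SP7 or IBSP, and BGLAP was near the lower limit of the files, with a base mean of 4.25 in the siControl table. PTPRC, PECAM1 and DES, markers of blood, endothelial and muscle cells, had base means of 5.21, 2.66 and 9.92 in the siControl table and ALB was not in any. EPCAM and KRT18, epithelial markers from the same list, were measured in all 4 comparisons, and their levels are not given here. These markers therefore do not settle the cell type.

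All but 1 of the 36 genes were well measured, with base means of 100 or more in all 4 tables; BBS1, a BBSome subunit, was the exception. In the authors' deposited table for Nutlin-3a in siControl the base means ran from 31.9 to 2812, with a median of 425 against 792 for all protein-coding genes. The 5 highest base means there were those of TCTN3 (2812), BBS7 (1672), IFT74 (1625), IFT57 (1349.7) and MKS1 (1224). Among the lowest base means, the authors' deposited table had BBS1 (31.9), B9D2 (127) and BBS5 (171). Divided by the length of all annotated exons in GENCODE 29, TCTN3, a tectonic protein of the transition zone, led with 873 normalised counts per kb. IFT74 followed at 399, IFT57 at 358, BBS7 at 346 and MKS1 at 300.2 per kb. At the low end BBS1 had 5.19 per kb. Neighbours in this order were not tested against each other.

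**Figure D1:**
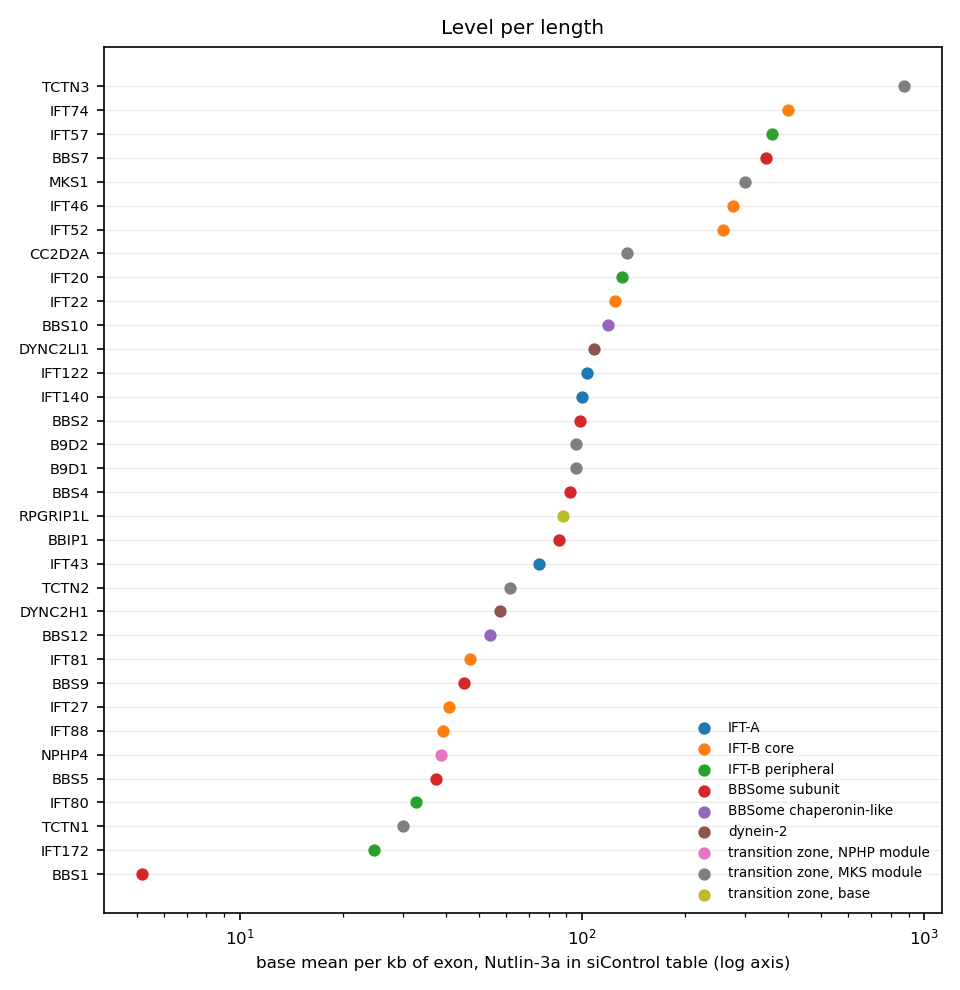
Base mean per kb of exon for each gene named here (log axis, no error available), coloured by the complex the protein belongs to. TCTN3 stands above all others at 873 per kb and BBS1 is lowest at 5.19, and BBSome subunits lie between 5.19 (BBS1) and 346 (BBS7).

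With Nutlin-3a, 4 of 7 BBSome subunits were called higher and none lower, and of all 36 genes more were called higher than lower. For siControl cells, the authors' deposited table had 15 of the 36 genes higher and 2 lower at an adjusted p under 0.05 (a gene past this limit is referred to as called). The background was 37.9% of all 23353 genes called, 18.3% higher and 19.6% lower, and the 36 genes had 47.2% called. Among well-expressed protein-coding genes (base mean 100 or more) 58.3% were called, 25.6% higher and 32.7% lower. So the share called was not above that of well-expressed genes, whereas 41.7% of the 36 were higher. Their median log2 fold change was 0.16, against 0.01 for all genes per the authors' deposited table and -0.03 for well-expressed protein-coding genes.

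The BBSome had 7 subunits in the set, and 4 of them, BBS2, BBS4, BBS7 and BBS9, rose with Nutlin-3a in both siRNA groups. BBS7 (ENSG00000138686, chromosome 4, 121824440 to 121870497 on GRCh38, minus strand) had group means of 1352 normalised counts in siControl with DMSO and 1991 with Nutlin-3a, and of 1299 and 1966 in siRFX7. Both Nutlin-3a groups thus stood above both DMSO groups. Its log2 fold change in siControl per the authors' deposited table was 0.56 ± 0.06 (SE; adjusted p 7.18e-22), and that in siRFX7 was 0.60 ± 0.06 (adjusted p 2.64e-25). BBS2 (ENSG00000125124, chromosome 16, 56466836 to 56520283, minus strand) went from 671 to 972 in siControl and from 669.9 to 972 in siRFX7. In the authors' deposited tables that was 0.54 ± 0.06 (SE; adjusted p 7.66e-17) and 0.54 ± 0.07 (adjusted p 1.52e-13).

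BBS4 and BBS9 rose by a similar size. BBS4 had group means of 319 and 448 in siControl and 270.2 and 406 in siRFX7, with log2 fold changes of 0.49 ± 0.08 (SE) and 0.59 ± 0.10 per the authors' deposited tables. BBS9 had 234 and 329, then 221 and 349, with 0.49 ± 0.09 (SE) and 0.66 ± 0.11 per the authors' deposited tables. The other 3 subunits of the set were not called in either table. BBIP1, the smallest subunit, was at 0.06 ± 0.06 (SE) and 0.14 ± 0.08 per the authors' deposited tables, BBS5 at 0.06 ± 0.12 and -0.09 ± 0.13, and BBS1 at 0.28 ± 0.26 and 0.44 ± 0.28. BBS1 had the widest error and the lowest base mean of the set, and 53.9% of its annotated exon bases are shared with another gene on the same strand. Its direction was not resolved.

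BBS12 and BBS10, chaperonin-like proteins needed to assemble the BBSome, rose as well. BBS12 (ENSG00000181004, chromosome 4, 122732702 to 122744943, plus strand) had the highest log2 fold change of the 36 genes in siControl, 0.91 ± 0.11 (SE; adjusted p 1.47e-14) per the authors' deposited table. Its group means were 129 with DMSO and 242 with Nutlin-3a in siControl, and 127 and 201 in siRFX7, where the authors' deposited table gave 0.66 ± 0.14 (adjusted p 8.36e-06). BBS10 changed less, by 0.20 ± 0.08 (SE; adjusted p 0.042) and 0.27 ± 0.09 (adjusted p 0.00831) per the authors' deposited tables. The BBSome subunit TTC8, which the gene names used here do not cover, rose too, by 0.39 ± 0.07 (SE) in siControl and 0.33 ± 0.08 in siRFX7 per the authors' deposited tables.

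The transport complexes moved less evenly. In IFT-A, IFT140 rose by 0.44 ± 0.07 (SE; adjusted p 1.1e-09) in siControl while IFT122 fell by 0.28 ± 0.06 (adjusted p 1.14e-05) per the authors' deposited table. In siRFX7 the authors' deposited table gave 0.35 ± 0.07 (SE) for IFT140 and -0.24 ± 0.06 for IFT122, both called. These 2 subunits of a single complex went opposite ways in both siRNA groups. IFT43, the third IFT-A gene of the set, was at 0.21 ± 0.09 (SE; adjusted p 0.0727) in siControl and rose by 0.34 ± 0.11 in siRFX7 per the authors' deposited tables.

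In IFT-B, 3 of 11 genes rose in siControl (27.3%) and 4 of 11 in siRFX7 (36.4%), and none fell. Of all genes, 18.3% and 18.7% were higher, and 19.6% and 20.3% lower. Of well-expressed protein-coding genes, 25.6% and 26.0% were higher, and 32.7% and 32.5% lower. The siControl share of higher genes was thus near that of well-expressed genes. IFT27, a small GTPase that links IFT-B to BBSome traffic, rose by 0.41 ± 0.10 (SE) and 0.46 ± 0.11 per the authors' deposited tables. IFT20, which also serves at the Golgi, rose by 0.37 ± 0.08 (SE) in siControl and 0.22 ± 0.09 (adjusted p 0.0415) in siRFX7 per the authors' deposited tables. Of IFT20's exon bases 11.2% overlap TMEM97 on the opposite strand, and TMEM97 fell by 0.65 ± 0.04 (SE) in siControl per the authors' deposited table. IFT52 just passed in siControl, at 0.16 ± 0.07 (SE; adjusted p 0.0497) per the authors' deposited table. In siRFX7, IFT74 rose by 0.24 ± 0.07 (SE) and IFT88 by 0.40 ± 0.12 per the authors' deposited table; in siControl they were at 0.09 and 0.16 and not called. IFT22, IFT46, IFT57, IFT80, IFT81 and IFT172 were called in neither table.

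Both dynein-2 genes of the set rose in siControl. Dynein-2 genes outside the set went both ways there, with WDR60 at 0.44 ± 0.10 (SE) and WDR34 at -0.45 ± 0.04 per the authors' deposited table. DYNC2LI1, the light intermediate chain, rose by 0.36 ± 0.09 (SE) in siControl and 0.46 ± 0.09 in siRFX7 per the authors' deposited tables. DYNC2H1, the motor heavy chain, rose by 0.23 ± 0.07 (SE; adjusted p 0.0063) in siControl and was at 0.09 ± 0.08 in siRFX7 per the authors' deposited tables.

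Transition zone genes split. RPGRIP1L (ENSG00000103494, chromosome 16, 53598153 to 53703938, minus strand), a scaffold at the base of the transition zone, had the lowest log2 fold change of the 36 genes in both siRNA groups. Its group means were 1240.0 with DMSO and 939 with Nutlin-3a in siControl, and 1085 and 888 in siRFX7, so that both Nutlin-3a groups were below both DMSO groups. The log2 fold changes per the authors' deposited tables were -0.40 ± 0.06 (SE; adjusted p 3.48e-11) and -0.29 ± 0.07 (adjusted p 6.81e-05). By contrast B9D1 of the MKS module rose by 0.34 ± 0.10 (SE) in siControl and 0.40 ± 0.10 in siRFX7 per the authors' deposited tables. TCTN1 rose by 0.25 ± 0.09 (SE) and 0.32 ± 0.11 per the authors' deposited tables. TCTN2 fell in siRFX7, at -0.24 ± 0.08 (SE; adjusted p 0.0124), and was at -0.21 ± 0.10 (adjusted p 0.0722) in siControl per the authors' deposited tables. B9D2, CC2D2A, MKS1, NPHP4 and TCTN3 were called in neither.

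**Figure D2:**
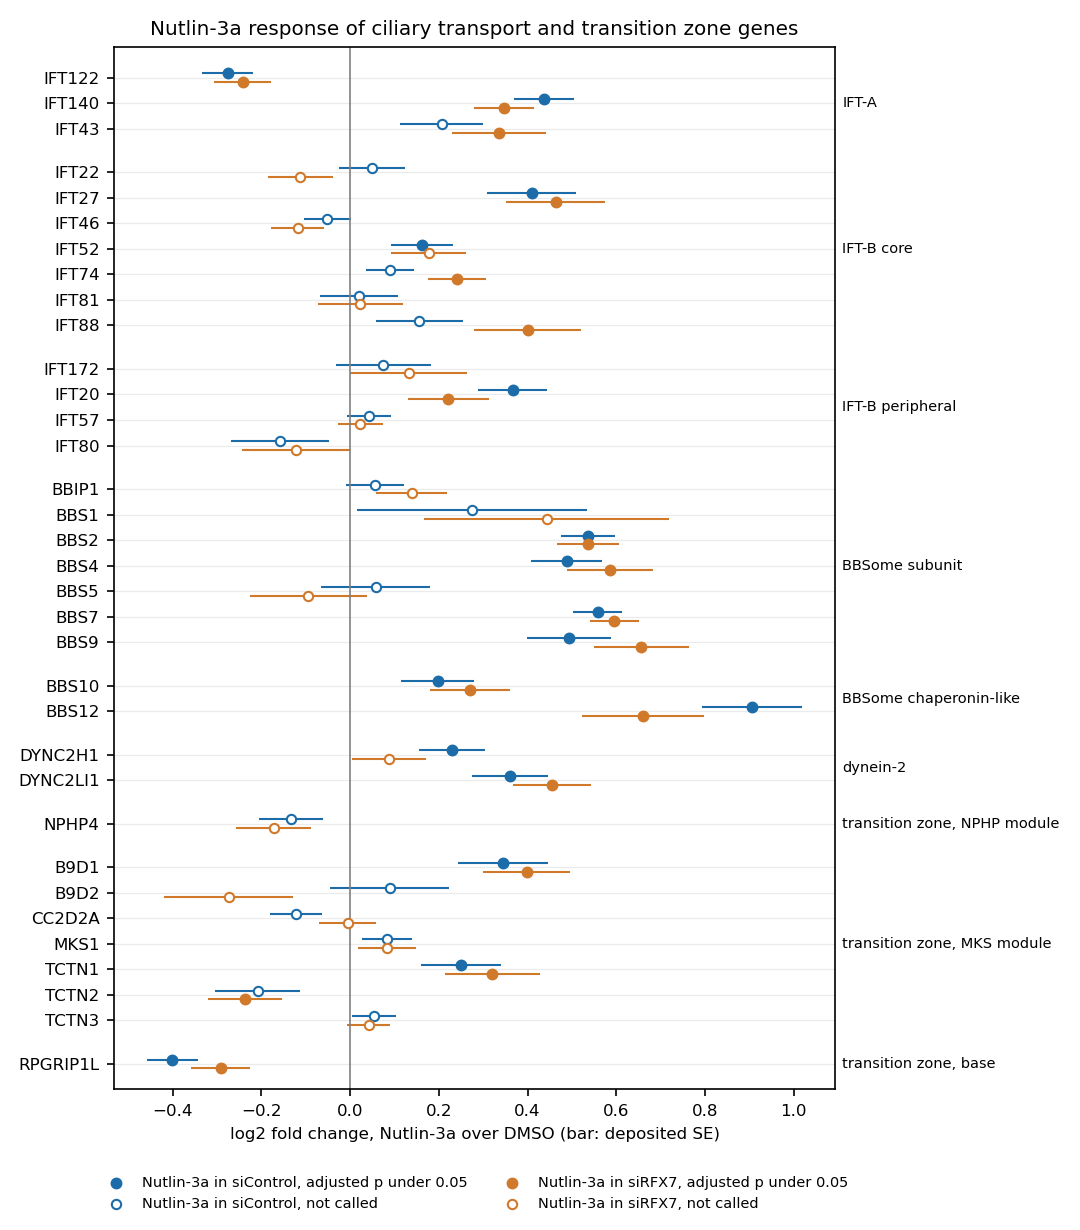
Log2 fold change of Nutlin-3a over DMSO for each gene named here, in siControl (blue) and siRFX7 (orange) cells, with the deposited SE as a bar; filled points passed an adjusted p of 0.05. BBS2, BBS4, BBS7, BBS9 and BBS12 have a value of at least 0.49 (rounded) in both groups of cells, and RPGRIP1L and IFT122 lie below 0 in both.

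The response in siRFX7 cells was measured in other libraries. There, 17 of the 36 genes were higher and 3 lower per the authors' deposited table, 55.6% called against 39.1% of all genes (18.7% higher, 20.3% lower) and 58.4% of well-expressed protein-coding genes (26.0% higher, 32.5% lower). The tables for siControl and siRFX7 share no library. Of the 36 genes, 13 were called higher with Nutlin-3a in both, which is 86.7% of the siControl list and 76.5% of the siRFX7 list. Over all genes, 3150 were called higher in both, from lists of 4273 in siControl and 4006 in siRFX7. Most genes on those all-gene lists were thus also called in both. As shares of all genes measured in both, and not of a called list, 14.8% were called higher in both and 17.0% lower. RPGRIP1L and IFT122 were called lower in both, and 33 of 36 genes had the same sign.

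Whether the knockdown altered the Nutlin-3a response was tested on the difference of the log2 fold changes, siRFX7 minus siControl, with a two-sided normal test adjusted over 21339 genes. No gene of the 36 passed (lowest adjusted p 0.86), and none had an unadjusted p under 0.05. In the whole test 200 genes, or 0.937%, were called (0.173% higher, 0.764% lower), and 6.32% had an unadjusted p under 0.05. The differences ran from -0.36 to 0.24 with a median of 0.04. For 30 of the 36 genes the 95% interval of the difference lay between -0.5 and 0.5, so that larger differences lay outside the interval; smaller ones cannot be told apart from 0 here. The smallest p-values were those of B9D2 (-0.36, 95% interval -0.75 to 0.02), IFT74 (0.15, -0.02 to 0.32) and IFT88 (0.24, -0.06 to 0.55). For BBS7 the interval was -0.12 to 0.19, and for BBS2 -0.18 to 0.18.

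**Figure D3:**
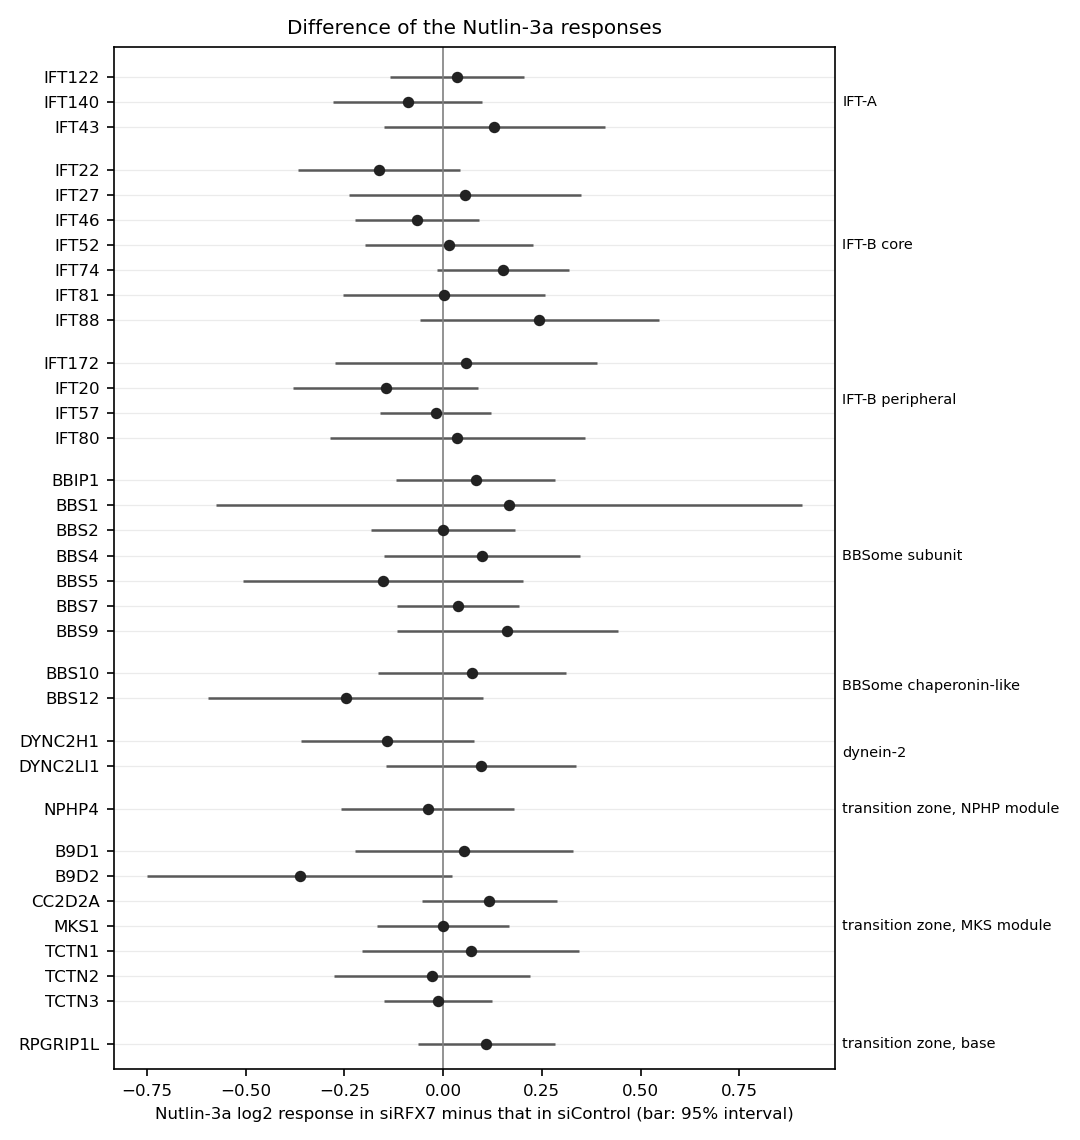
Nutlin-3a log2 response in siRFX7 minus that in siControl for each gene named here, with its 95% interval. No difference passed the test, points lie on both sides of 0, and the widest interval is that of BBS1.

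Knockdown of RFX7 changed fewer of these genes, in both directions, and TCTN2 changed most. Under DMSO, 7 of 36 genes were higher and 5 lower per the authors' deposited table, 33.3% called against 37.4% of all genes (19.9% higher, 17.5% lower) and 50.4% of well-expressed protein-coding genes (28.0% higher, 22.4% lower). Under Nutlin-3a, 5 were higher and 3 lower per the authors' deposited table, 22.2% called against 32.6% of all genes (17.2% higher, 15.4% lower) and 46.1% of well-expressed protein-coding genes (25.7% higher, 20.3% lower). Both called shares were below the background, but the 33.3% under DMSO was near the 37.4% of all genes. Whether either share differs from the background was not tested. The median log2 fold change was -0.03 under DMSO, where all genes had a median near 0, and the range ran from -0.46 to 0.88 per the authors' deposited table.

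TCTN2 (ENSG00000168778, chromosome 12, 123671113 to 123708403, plus strand), a tectonic of the MKS module, stood near 337 and 292 normalised counts in siControl with DMSO and Nutlin-3a. In siRFX7 it stood at 619.8 and 527, so both knockdown groups were above both control groups. Its log2 fold change per the authors' deposited tables was 0.88 ± 0.09 (SE; adjusted p 1.11e-20) under DMSO and 0.85 ± 0.09 (adjusted p 9.65e-22) under Nutlin-3a, or 1.84-fold and 1.81-fold. Of its exon bases 6.25% overlap an antisense gene.

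IFT74 (ENSG00000096872, chromosome 9, 26947039 to 27062930, plus strand), which with IFT81 binds tubulin as train cargo, was the gene that fell furthest. Its group means were 1575 and 1676 in siControl and 1148 and 1359 in siRFX7, with each knockdown group below its control. The log2 fold changes per the authors' deposited tables were -0.46 ± 0.06 (SE; adjusted p 7.84e-14) and -0.30 ± 0.06 (adjusted p 7.29e-06). The partner IFT81 was not called, at 0.07 ± 0.09 (SE) under both treatments per the authors' deposited tables. PLAA overlaps 6.68% of the exon bases of IFT74 on the opposite strand and was at -0.13 ± 0.04 (SE) and -0.07 ± 0.04 per the authors' deposited tables.

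IFT22, IFT57 and TCTN3 were also higher with siRFX7 under both treatments. IFT57, a peripheral IFT-B protein, had group means of 1329.9 and 1369.6 in siControl and 1610.5 and 1638 in siRFX7. It rose by 0.28 ± 0.05 (SE; adjusted p 1.21e-07) and 0.26 ± 0.05 (adjusted p 5.63e-06) per the authors' deposited tables. TCTN3 had 2760.0 and 2865 against 3219 and 3316, a rise of 0.22 ± 0.05 (SE; adjusted p 1e-05) and 0.21 ± 0.05 per the authors' deposited tables. In both genes both knockdown groups stood above both control groups.

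IFT22, a small GTPase-like protein of the IFT-B core, had group means of 509 and 527 in siControl and 666 and 617 in siRFX7. It rose by 0.39 ± 0.07 (SE; adjusted p 3.45e-07) under DMSO and 0.23 ± 0.08 (adjusted p 0.0126) under Nutlin-3a per the authors' deposited tables.

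The remaining siRFX7 calls were made under 1 treatment, and none of these effects was shown to differ between treatments. Under DMSO, B9D2 rose by 0.43 ± 0.13 (SE) and DYNC2H1 by 0.26 ± 0.08 per the authors' deposited table. There IFT88 fell by 0.32 ± 0.11 (SE), BBS4 by 0.24 ± 0.09 and RPGRIP1L by 0.19 ± 0.06 per the authors' deposited table. Under Nutlin-3a, BBS12 fell by 0.27 ± 0.11 (SE; adjusted p 0.0431) and IFT46 by 0.15 ± 0.06 (adjusted p 0.03) per the authors' deposited table.

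BBIP1 fell under DMSO, by 0.22 ± 0.07 (SE; adjusted p 0.00913), and was at -0.14 ± 0.07 under Nutlin-3a per the authors' deposited tables. Of its exon bases 20.2% overlap PDCD4 on the opposite strand. PDCD4 fell by 0.80 ± 0.07 (SE) under DMSO and by 1.4 ± 0.06 under Nutlin-3a per the authors' deposited tables. Since no source used here says whether counting used strand, reads of these 2 genes may be mixed, and the part of PDCD4 in the value of BBIP1 was not tested. With Nutlin-3a in siControl, PDCD4 rose by 0.99 ± 0.05 (SE) per the authors' deposited table, where BBIP1 was at 0.06.

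**Figure D4:**
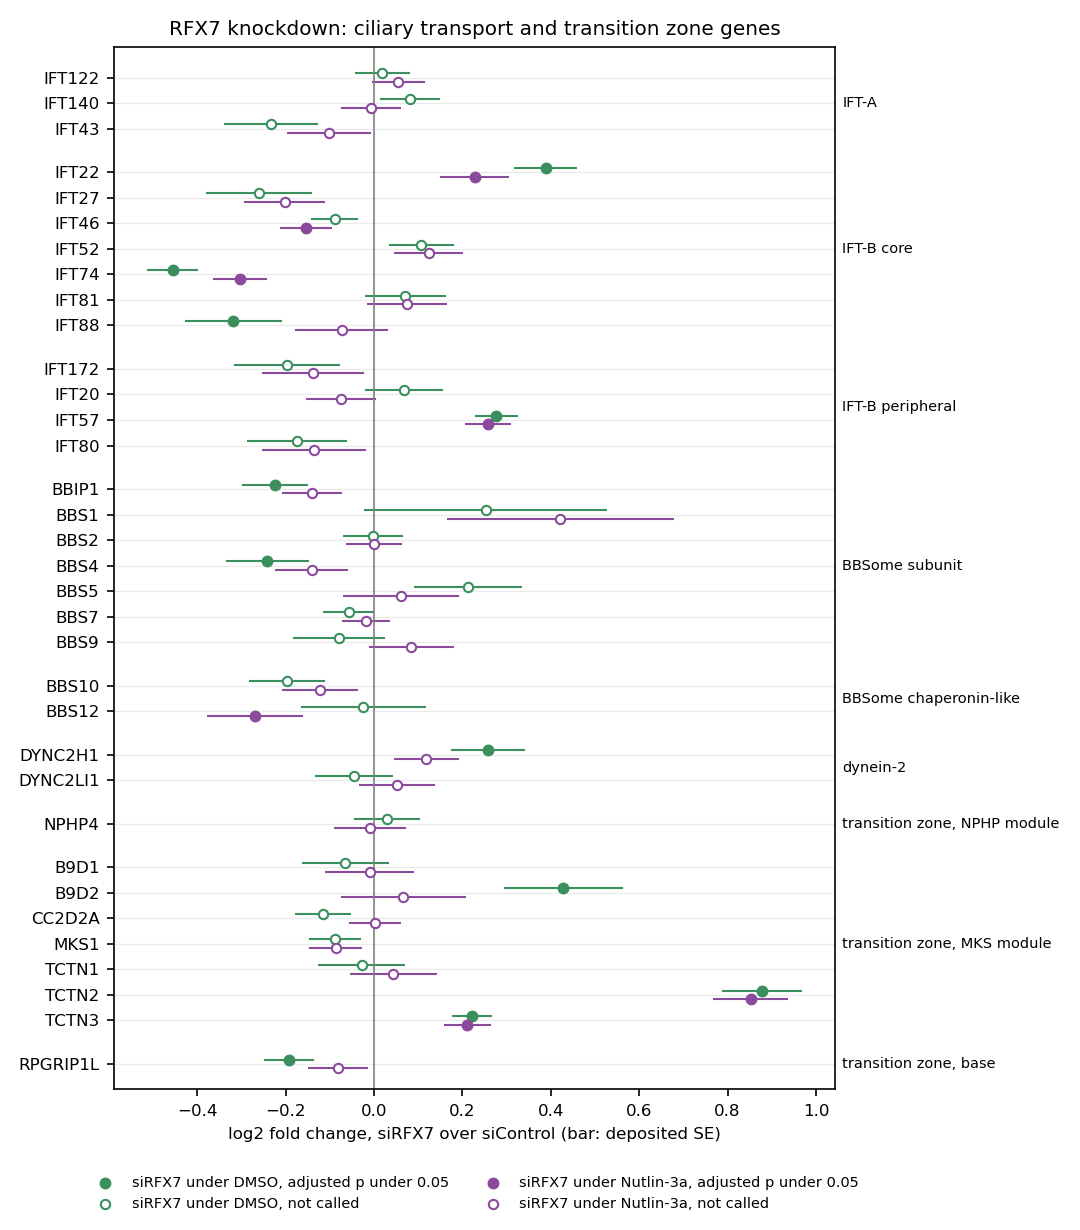
Log2 fold change of siRFX7 over siControl for each gene named here, under DMSO (green) and Nutlin-3a (purple), with the deposited SE as a bar; filled points passed an adjusted p of 0.05. TCTN2 stands alone above 0.8, IFT74 is lowest under both treatments, and most points of both colours lie near 0.

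**Figure D5:**
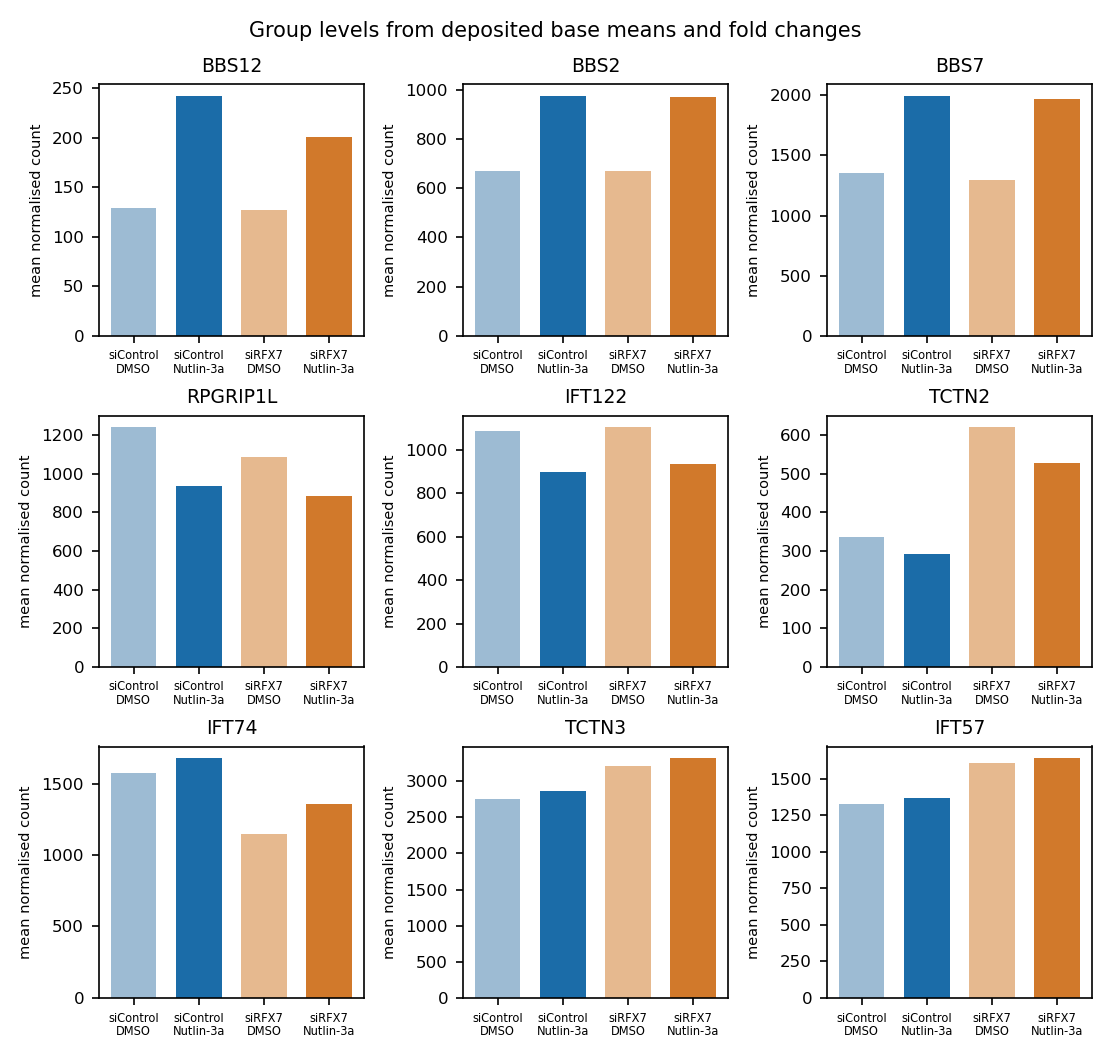
Mean normalised count in the 4 groups for 9 genes, computed from the deposited base means and fold changes on 1 scale; no error is available for a single group. BBS12, BBS2 and BBS7 are higher in both Nutlin-3a groups, RPGRIP1L and IFT122 lower in both, TCTN2, TCTN3 and IFT57 higher in both siRFX7 groups and IFT74 lower in both.

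The siRFX7 tables of the DMSO and the Nutlin-3a cells share no library. Of the genes higher with siRFX7, 5 were called in both, which is 71.4% of the DMSO list and 100% of the Nutlin-3a list. Over all genes, 2748 were called higher in both (14.2% of those tested in both), from lists of 3883 under DMSO and 3503 under Nutlin-3a. Of the genes lower, IFT74 alone was called in both, 1 of the 5 lower under DMSO and 33.3% of the Nutlin-3a list. Over all genes, 2302 were called lower in both (11.9% of those tested in both), from lists of 3405 under DMSO and 3122 under Nutlin-3a. Most genes on the all-gene lists of lower genes were thus called in both, a larger share than among the genes described here. BBS1, BBS5, CC2D2A, IFT172, IFT80, IFT81, MKS1 and NPHP4 were called in none of the 4 comparisons.

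The genes with the X-box half-site shown above did not move as a block with siRFX7. Of the 16 genes with the half-site, 3 were higher (B9D2, DYNC2H1, TCTN3) and 3 lower (BBIP1, IFT74, IFT88) under DMSO, with a median of -0.04 per the authors' deposited table. Of the 15 genes whose windows lack it, 1 was higher and 2 lower under DMSO, with a median of -0.06 per the authors' deposited table. Under Nutlin-3a, 1 of the 16 was higher and 2 lower, against 1 and 1 of the 15. The differences between the 16 and the 15 were not tested. Over all genes, 19.9% were higher and 17.5% lower under DMSO, and 17.2% and 15.4% under Nutlin-3a. Among well-expressed protein-coding genes these shares were 28.0% and 22.4% under DMSO, and 25.7% and 20.3% under Nutlin-3a. In 3′ untranslated regions, 0 of the 36 genes carried the heptamer GTATCTA and 1, BBS12, the hexamer GACGTA, against 8.14% and 4.82% of 11526 well-expressed protein-coding genes (longest annotated region per gene, GENCODE 29). Both short sequences were picked from an earlier scan of these same tables for genes lower and higher with siRFX7.

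Other genes of the cilium, from 8 lists of 74 measured genes, did not rise more often than they fell with Nutlin-3a. In siControl cells 18 of the 74 were higher per the authors' deposited table and 22 lower, with a median of -0.02, and in siRFX7 16 were higher and 19 lower. Over all genes 18.3% were higher and 19.6% lower in siControl, and 18.7% and 20.3% in siRFX7. Among well-expressed protein-coding genes these shares were 25.6% and 32.7% in siControl, and 26.0% and 32.5% in siRFX7. With siRFX7, 23 of 73 were higher and 12 lower under DMSO, and 18 higher and 11 lower under Nutlin-3a, per the authors' deposited tables. The background there was 19.9% of all genes higher and 17.5% lower under DMSO (28.0% and 22.4% of well-expressed protein-coding genes), and 17.2% and 15.4% under Nutlin-3a (25.7% and 20.3%). The same shares are the background for the counts of each single list below, and several of those counts are near them. Whether any list differs from that background was not tested. None of the 74 differed in its Nutlin-3a response by the test of the difference.

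All 5 kinesin-2 genes rose with Nutlin-3a in siControl and 4 of 5 in siRFX7, where 18.3% and 18.7% of all genes were higher. The highest were KIF17 in siControl (0.49 ± 0.07 SE) and KIFAP3, the adaptor subunit, in siRFX7 (0.42 ± 0.07) per the authors' deposited tables. With siRFX7, 3 of 5 were higher under each treatment, led by KIF3C (0.28 ± 0.05 SE and 0.18 ± 0.05), and KIFAP3 fell under DMSO (-0.20 ± 0.07) per the authors' deposited tables.

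Of 4 further IFT-A genes, WDR19 alone rose with Nutlin-3a (0.39 ± 0.06 SE in siControl, 0.27 ± 0.06 in siRFX7) per the authors' deposited tables. With siRFX7, 3 of the 4 were higher under both treatments, led by TULP3, which couples IFT-A to membrane cargo (0.56 ± 0.05 SE under DMSO, 0.47 ± 0.05 under Nutlin-3a) per the authors' deposited tables. Of 6 further IFT-B genes, 2 were higher with Nutlin-3a in each siRNA group and none was called with siRFX7. The extremes among called genes with Nutlin-3a per the authors' deposited tables were TTC30A (0.41 ± 0.13 SE) and HSPB11 (-0.18 ± 0.06) in siControl, and TTC30B (0.56 ± 0.19) in siRFX7. TTC30A and TTC30B are close copies whose reads can be shared, so both are uncertain.

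Of 3 further dynein-2 genes, WDR60 rose with Nutlin-3a (0.44 ± 0.10 SE and 0.55 ± 0.13) and WDR34 fell (-0.45 ± 0.04 and -0.58 ± 0.05) per the authors' deposited tables. Knockdown of RFX7 also lowered WDR34, by 0.12 ± 0.05 (SE) in DMSO cells and 0.24 ± 0.05 in Nutlin-3a cells, per the authors' deposited tables. Among 4 genes for BBSome partners, TTC8 was the only one called with Nutlin-3a. With siRFX7, LZTFL1, which restrains BBSome entry, rose by 0.61 ± 0.06 (SE) and 0.56 ± 0.06, and ARL6, the GTPase that recruits the BBSome to membranes, was at -0.36 ± 0.09 and -0.33 ± 0.09 per the authors' deposited tables; both were called under both treatments.

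Of 17 further transition zone genes, 3 were higher and 6 lower with Nutlin-3a in siControl, and 3 and 4 in siRFX7. The extremes among called genes per the authors' deposited tables were TMEM67 (0.35 ± 0.12 SE) and TMEM80 (-0.45 ± 0.11) in siControl, and CEP290 (0.31 ± 0.07) and TMEM80 (-0.44 ± 0.16) in siRFX7. With siRFX7, 4 were higher and 4 lower under DMSO and 3 and 3 under Nutlin-3a, of 16 measured. Of the called genes, TMEM67 was highest (0.53 ± 0.11 SE and 0.39 ± 0.11) and TMEM80 lowest (-0.62 ± 0.12 and -0.61 ± 0.15) under both treatments per the authors' deposited tables.

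Of 18 genes for ciliary membrane cargo and signalling, 3 were higher and 6 lower with Nutlin-3a in siControl and 2 and 7 in siRFX7. PKD2, a ciliary calcium channel, was highest (0.54 ± 0.06 SE and 0.65 ± 0.06), and GLI1 was the lowest in siRFX7 (-0.58 ± 0.09) per the authors' deposited tables. With siRFX7, 7 were higher and 2 lower under DMSO and 5 and 4 under Nutlin-3a. GPR161 was highest (0.41 ± 0.07 SE and 0.31 ± 0.09), and the lowest were EVC under DMSO (-0.44 ± 0.07) and GLI1 under Nutlin-3a (-0.60 ± 0.10) per the authors' deposited tables.

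Of 17 genes for distal appendages and the start of ciliogenesis, 2 were higher and 8 lower with Nutlin-3a in siControl and 2 and 7 in siRFX7. KIF24, a kinesin that restrains cilium assembly in cycling cells, was lowest (-1.05 ± 0.05 SE and -1.08 ± 0.06) and CPLANE1 the highest called gene (0.16 ± 0.06 and 0.35 ± 0.08) per the authors' deposited tables. With siRFX7, 5 were higher and 3 lower under DMSO and 3 and 2 under Nutlin-3a. CEP89 was highest under DMSO (0.45 ± 0.06 SE), CEP97 under Nutlin-3a (0.43 ± 0.06), and CEP83 lowest under both (-0.46 ± 0.08 and -0.38 ± 0.09) per the authors' deposited tables.

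Markers of motile cilia and multiciliated cells were absent in part. FOXJ1, the master regulator of motile cilia, was in none of the authors' deposited tables, nor were DNAH9, DNAI2, CCDC39, SPAG6 and TEKT1. Of 15 such genes in the siControl table, 4 were higher and 1 lower with Nutlin-3a, led by PIFO (1.54 ± 0.25 SE) and MYB (-1.42 ± 0.20) per the authors' deposited table. In siRFX7, 3 were higher and 2 lower, with the same extremes (PIFO 1.49 ± 0.26 SE, MYB -1.85 ± 0.22) per the authors' deposited table. With siRFX7, none was called under DMSO and HYDIN alone under Nutlin-3a (0.46 ± 0.17 SE) per the authors' deposited tables.

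Proliferation genes fell in the comparisons in which 4 BBSome genes rose. With Nutlin-3a, 9 of 10 fell in siControl and 10 of 10 in siRFX7, the lowest being MCM2 (-1.18 ± 0.04 SE and -1.39 ± 0.04), per the authors' deposited tables. The part of these proliferation genes' fall in the rise of those BBSome genes was not tested. With siRFX7, 2 of 10 were higher and 2 lower under DMSO and 7 lower under Nutlin-3a, with CCNB1 highest under DMSO (0.30 ± 0.04 SE) and CCNA2 lowest under both (-0.51 ± 0.04 and -0.82 ± 0.04) per the authors' deposited tables. In bulk RNA, a change in how many cells express a gene cannot be told apart from a change in RNA per cell.

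Of the p53 check genes, GDF15 rose most with Nutlin-3a (3.83 ± 0.23 SE in siControl, 4.34 ± 0.30 in siRFX7) per the authors' deposited tables. With siRFX7 the extremes were CDKN1A (0.60 ± 0.04 SE) and RRM2B (-0.74 ± 0.05) under DMSO, and SESN1 (0.42 ± 0.05) and RRM2B (-0.48 ± 0.05) under Nutlin-3a, per the authors' deposited tables. Of the osteoblast genes, SPP1 was highest with Nutlin-3a (0.45 ± 0.12 SE and 0.72 ± 0.18) and lowest with siRFX7 (-0.87 ± 0.16 and -0.60 ± 0.13), where COL1A1 was highest (0.38 ± 0.04 and 0.27 ± 0.05), per the authors' deposited tables. Of the markers of other cell types, KRT18 was called with Nutlin-3a in siRFX7 (0.09 ± 0.03 SE), and EPCAM with siRFX7 (0.54 ± 0.11 and 0.41 ± 0.11), per the authors' deposited tables.

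Most calls, those of BBS4 and BBS9 with Nutlin-3a and of BBS12 in siRFX7 cells included, were lost on a stricter scale. That scale divides each table's statistics by their robust SD across genes, and 9.86% of all genes with Nutlin-3a in siControl are called on it. The robust SD also holds the effects of treatment or knockdown across genes, so this scale does not test the deposited errors. With Nutlin-3a, BBS2, BBS7, BBS12 and RPGRIP1L were still called in siControl, and BBS2 and BBS7 in siRFX7. With siRFX7, TCTN2 and IFT74 were still called under DMSO, and TCTN2 under Nutlin-3a.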

How the data were processed

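Poly(A) RNA of 16 libraries was measured, and each sample was placed in its group by its title. Per the submitters' processing notes, build hg38 and the tools featureCounts 1.6.5, DESeq2 1.20.0, Trimmomatic 0.39, cutadapt 2.10 and SAMtools 1.10, among others, were used; the aligner, the annotation and the strand setting are not given in the sources used here. Per the file headers, the authors deposited 4 DESeq2 tables: base mean (a signal, the mean normalised count), log2 fold change with its SE, the Wald statistic (a score), p-value and adjusted p-value. These were used as deposited, called at an adjusted p under 0.05 over the whole table. Table directions were taken from the closure of the 4 tables over 19344 genes (SD of the gap 0.00291 on the log2 scale) and from the lower RFX7 with its siRNA.

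Group means were computed as 2 values whose mean is the base mean and whose ratio is the deposited fold change; siRFX7 groups were placed on the siControl scale by the deposited fold changes. Across 13523 genes, a group's values from its 2 tables differed by a constant factor, with a robust SD of the log2 ratio of at most 0.00132. The difference of the responses used a two-sided normal test with the Benjamini-Hochberg adjustment, tested on simulated data. Gene models came from GENCODE 29 on GRCh38 and promoter windows from RefSeq (GRCh38.p14). Python 3.11.15, pandas 2.3.3 and scipy 1.17.1 were used.

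The genes and all lists were chosen with earlier results of these data known. Genes were named by rule: the called members (the 8 highest and 8 lowest where over 16 were called), the 3 smallest p-values of the difference, the 5 highest and lowest base means, and the highest and lowest called gene of each list; up to 8 promoters were shown. Values of a named member in the other tables, of uncalled members, of overlapping genes and of DYNC2LI1, IFT140 and B9D1 where the rule did not take them were added after their values were seen. Some genes that the rule takes are counted in the totals but not reported here by name. Alternatives were another threshold, a size limit, adjustment over protein-coding genes, a base mean filter, centring and scaled statistics.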

Additional observations from a re-analysis of the deposited data

Results flagged for a closer look

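None of the 36 ciliary genes and none of the other ciliary genes differed in its Nutlin-3a response between siRFX7 and siControl. Among the check genes, 7 did, by the two-sided normal test adjusted over all genes (4 libraries per group; log2 difference, siRFX7 minus siControl). Of the proliferation genes, PLK1 (-0.35 ± 0.06 SE, adjusted p 7.05e-06), CCNB1 (-0.32 ± 0.06, 2.72e-05), CCNA2 (-0.31 ± 0.06, 1.16e-05), PCNA (-0.22 ± 0.05, 0.00816) and MCM2 (-0.20 ± 0.05, 0.017) had a more negative Nutlin-3a response in siRFX7. Of the p53 targets, CDKN1A rose less in siRFX7 (-0.26 ± 0.05, 0.000305) and RRM2B rose more (0.26 ± 0.07, 0.0123). These are differences of responses, not of levels. With siRFX7, CDKN1A was called higher under both treatments (0.60 under DMSO). RRM2B was lower under both (-0.74 under DMSO, -0.48 under Nutlin-3a).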

How the results depend on the processing

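The counts of called genes among the 36 were recomputed under 6 alternatives. After division of the statistics by their robust SD, they came to 4 with Nutlin-3a in siControl (17 as reported), 2 in siRFX7 (20), 2 with siRFX7 under DMSO (12) and 1 under Nutlin-3a (8); the same change took all genes called with Nutlin-3a in siControl from 8853 to 2303, in siRFX7 from 8355 to 2048, with siRFX7 under DMSO from 7288 to 955 and under Nutlin-3a from 6625 to 1074. With siRFX7 under Nutlin-3a, the count was also 5 at an adjusted p under 0.01 and 5 with an absolute log2 fold change of at least 0.25. That size limit took all genes called with siRFX7 from 7288 to 4501 under DMSO and from 6625 to 4020 under Nutlin-3a. The remaining counts stayed within 1.5 times of those reported. Centring on protein-coding genes made the calls with siRFX7 under DMSO 7 higher and 7 lower, against 7 and 5, and the size limit made them 6 and 2. For the difference of the responses, 0 of the 36 genes were called under all 6 alternatives run. Over the named genes, 261 of 330 values kept their call, 69 lost it and 0 changed direction. The causes were not tested. Leaving out single libraries, a replicate block and edgeR were not run. No paired analysis was possible because the files hold no values of single libraries. Counting precision per library is therefore unknown.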
